A study of Homo sapiens with 8 samples.

Results

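COL5A1, UNC13A, MYH15, MRC1 and BTN1A1 are 5 genes, of 25168 in the count table, that were near-absent or low in vehicle-treated KG1a cells and much higher with the SUMO inhibitor TAK-981. KG1a is a long-established human leukemia line of early myeloid cells that carry CD34. The 5 genes were picked by symbol for this pattern, so their levels with TAK-981, alone or with venetoclax, against vehicle are the values that chose them and are given as a description without a test. RNA sequencing covered 4 groups of 2 libraries, all treated for 48 h: 5 µM TAK-981 with 1 µM venetoclax, 5 µM TAK-981, 1 µM venetoclax, and DMSO vehicle. All groups are the same cell line. The labels do not state that the 2 libraries of a group are separate cultures, so a p-value here reflects differences among libraries that may be technical only.

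SUMO is a small protein that is attached to other proteins, and TAK-981 blocks the enzyme that activates it. Many transcriptional repressors and heterochromatin proteins carry SUMO, and the mark is known for recruiting partners that keep genes silent. Venetoclax binds BCL2, which keeps cells from apoptosis, and inhibits it. The 5 genes belong to unrelated families and are best known from tissues other than blood progenitors. COL5A1 encodes a chain of type V collagen, a fibrillar collagen of connective tissue. UNC13A encodes a protein that primes synaptic vesicles for release in neurons. MYH15 encodes a myosin heavy chain. MRC1 encodes the mannose receptor CD206, a marker of macrophages. BTN1A1 encodes a butyrophilin best known from the milk fat globule membrane of lactating mammary gland.

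The genes lie on 5 chromosomes (hg38). COL5A1 is at chr9:134641774-134844843, UNC13A at chr19:17601328-17688365, MYH15 at chr3:108380369-108529322, MRC1 at chr10:17809344-17911170 and BTN1A1 at chr6:26501221-26510422. Each has the same start and end in GENCODE 29, where all are annotated as protein-coding. Since the genes were higher together, the promoter windows of the 4 that have an entry in the RefSeq table (GRCh38.p14) are shown, 250 bases before to 50 after the start, 5′ to 3′ on the gene's strand, with each CpG dinucleotide in capitals.
COL5A1: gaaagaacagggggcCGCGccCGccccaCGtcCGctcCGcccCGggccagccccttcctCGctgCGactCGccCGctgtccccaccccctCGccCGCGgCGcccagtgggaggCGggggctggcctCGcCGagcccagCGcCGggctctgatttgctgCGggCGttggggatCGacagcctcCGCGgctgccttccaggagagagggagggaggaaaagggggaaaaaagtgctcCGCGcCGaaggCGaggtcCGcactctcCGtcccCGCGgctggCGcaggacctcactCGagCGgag
UNC13A: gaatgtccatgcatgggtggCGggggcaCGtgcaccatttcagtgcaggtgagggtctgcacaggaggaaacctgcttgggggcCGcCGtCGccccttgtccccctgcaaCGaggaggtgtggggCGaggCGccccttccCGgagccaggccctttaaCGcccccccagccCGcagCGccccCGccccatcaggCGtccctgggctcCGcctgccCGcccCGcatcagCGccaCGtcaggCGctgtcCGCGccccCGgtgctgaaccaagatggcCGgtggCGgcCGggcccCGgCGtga
MYH15: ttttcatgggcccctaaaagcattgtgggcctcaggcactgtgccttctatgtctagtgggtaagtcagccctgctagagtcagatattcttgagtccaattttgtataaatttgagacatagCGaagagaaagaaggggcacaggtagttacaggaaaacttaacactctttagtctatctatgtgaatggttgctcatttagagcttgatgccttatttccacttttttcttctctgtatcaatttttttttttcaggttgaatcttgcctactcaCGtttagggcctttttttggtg
BTN1A1: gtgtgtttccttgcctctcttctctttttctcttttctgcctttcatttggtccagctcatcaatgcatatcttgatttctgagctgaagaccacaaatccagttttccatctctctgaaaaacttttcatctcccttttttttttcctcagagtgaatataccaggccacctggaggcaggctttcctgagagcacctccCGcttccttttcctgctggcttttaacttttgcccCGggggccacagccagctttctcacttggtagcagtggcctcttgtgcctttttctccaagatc
The COL5A1 window is chr9:134641553-134641852, the UNC13A window chr19:17688305-17688604, the MYH15 window chr3:108510547-108510846 and the BTN1A1 window chr6:26500053-26500352. COL5A1 has 2 windows in the table, and the one with the lower coordinates is shown.

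The 4 windows differed in CpG content. The COL5A1 and UNC13A windows held 36 and 28 CpG dinucleotides, with a GC content of 74.0% and 73.0%. The MYH15 and BTN1A1 windows held 2 CpG dinucleotides each, with a GC content of 40.0% and 46.7%. Over the 35116 windows of the table the median was 14 CpG dinucleotides, 87.3% held fewer than COL5A1, 73.8% fewer than UNC13A and 11.0% fewer than MYH15 or BTN1A1. The start behind the MYH15 window lies 18726 bases inside the gene as the count table gives it, and that behind the BTN1A1 window before the start the table gives, so both windows describe RefSeq starts and the starts used in these cells were not measured.

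**Figure D1:**
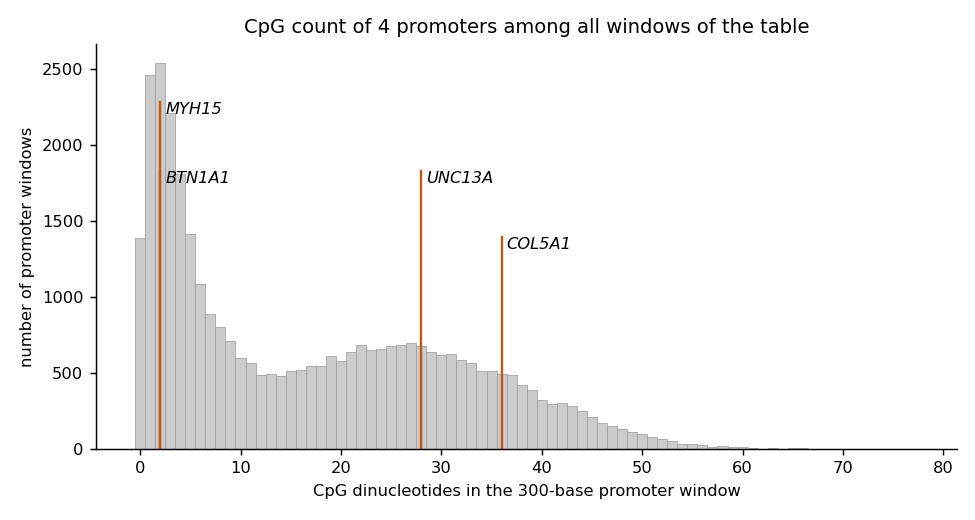
CpG dinucleotides per 300-base promoter window (x axis) against the number of windows with that count (y axis), for all 35116 windows (grey bars), with 4 of the 5 genes marked by lines whose heights carry no value. MYH15 and BTN1A1 sit at 2 and UNC13A and COL5A1 at 28 and 36.

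In all, 6 short motifs were searched on both strands, as descriptions of the letters only. The NFAT core GGAAA was in all 4 windows, once in UNC13A, 2 times each in COL5A1 and MYH15 and 5 times in BTN1A1, and 61.2% of all windows hold it. The E-box CANNTG was in UNC13A (2 places) and BTN1A1 (3 places), against 68.7% of all windows. The CRE core TGACGT was in UNC13A alone (7.98% of all windows) and the TATA box TATAAA in MYH15 alone (11.5%). The GATA core GATAA and the AP-1 site TGANTCA were in none of the 4 windows, against 22.7% and 7.71% of all windows. No place of one motif shared a base with a place of another in these windows.

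The total count per library ran from 13204588 to 26304900. The 2 venetoclax libraries stood further apart than the others, with a median difference between replicates of 0.297 log2 units over 12843 tested genes, against 0.125 for the combination, 0.109 for TAK-981 and 0.12 for vehicle. The test pooled this spread over the groups. For the 5 genes, values that rest on the venetoclax libraries are therefore also given on leaving each of them out. Values set against a lone library with 0 counts are not given, since they depend on the prior count.

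COL5A1 had the widest contrast. It had 615 and 388 counts with TAK-981 plus venetoclax, 487 and 315 with TAK-981, 0 and 2 with venetoclax, and 1 and 2 with vehicle. In CPM, which is counts scaled to one common library total, this was 29.8 and 29.4 with both drugs, 21.2 and 17.3 with TAK-981, 0 and 0.076 with venetoclax, and 0.0439 and 0.084 with vehicle. The 4 libraries with TAK-981 were all high, and those without it held at most 2 counts each. The ratio of CPM over a group was 460 for both drugs against vehicle (exact 95% counting interval 157 to 2236) and 303 for TAK-981 against vehicle (103 to 1471), intervals that cover counting error only. The fitted log2 fold change was 8.64 (SE 0.349) with both drugs against vehicle and 8.06 (SE 0.356) with TAK-981 against vehicle. These SEs are too small, since the counting intervals alone are wider than they allow. In bulk RNA, many cells with little of a transcript and few cells with much of it cannot be told apart, for this gene and the others. With 3 counts over the vehicle libraries, the fitted value moved with the vehicle library used, for TAK-981 to 7.69 or 8.57 on leaving out 1 of the 2 vehicle libraries.

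UNC13A was also highest with both drugs. Its level was 34.2 and 24.8 CPM with both drugs, 20.7 and 16.5 CPM with TAK-981, 0.341 and 0 CPM with venetoclax, and 0.132 and 0.126 CPM with vehicle, the last from 3 counts in each library. The 4 libraries with TAK-981 were far above the 4 without it. Against vehicle the log2 fold change was 7.70 (SE 0.517) with both drugs and 7.08 (SE 0.525) with TAK-981.

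MYH15 had 11.6 and 12.0 CPM with both drugs, 10.3 and 8.04 CPM with TAK-981, 0.954 and 0.342 CPM with venetoclax, and 0.307 and 0.126 CPM with vehicle. The venetoclax values come from 14 and 9 counts and the vehicle values from 7 and 3. The groups with TAK-981 did not overlap those without it. Against vehicle the log2 fold change was 5.67 (SE 0.441) with both drugs and 5.35 (SE 0.444) with TAK-981. The TAK-981 value was 6.07 without vehicle replicate 1 and 4.86 without vehicle replicate 2.

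MRC1 and BTN1A1 were low with vehicle but not silent. MRC1 had 27 and 26 counts and BTN1A1 22 and 19 counts in the vehicle libraries. MRC1 stood at 8.33 and 10.8 CPM with both drugs, 18.4 and 16.4 CPM with TAK-981, 0.273 and 0.646 CPM with venetoclax, and 1.19 and 1.09 CPM with vehicle. It was the one gene of the 5 whose libraries with TAK-981 alone both lay above those with both drugs. Its log2 fold change against vehicle was 2.98 (SE 0.264) with both drugs and 3.90 (SE 0.258) with TAK-981. BTN1A1 stood at 10.3 and 10.8 CPM with both drugs, 10.7 and 10.8 CPM with TAK-981, 0.682 and 1.22 CPM with venetoclax, and 0.966 and 0.798 CPM with vehicle. The groups with TAK-981 overlapped each other, as did those without it. Its log2 fold change against vehicle was 3.50 (SE 0.239) with both drugs and 3.57 (SE 0.237) with TAK-981.

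**Figure D2:**
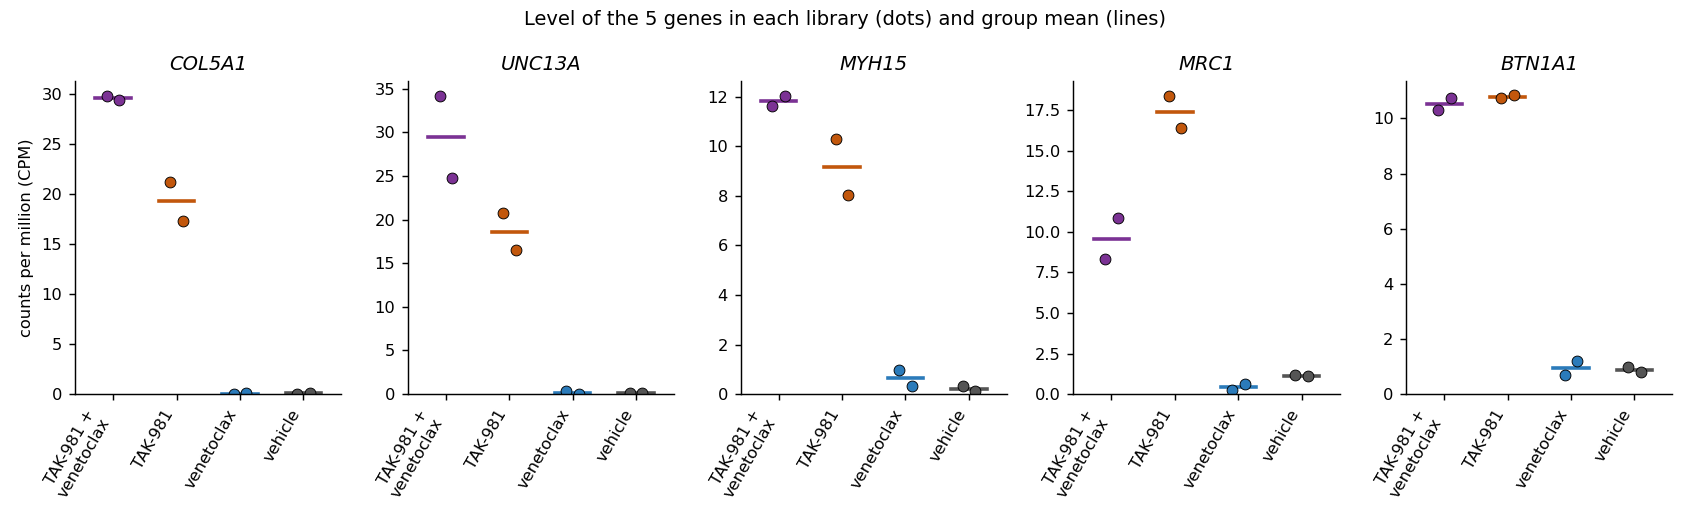
Level of each gene in CPM (y axis, linear from 0, own scale per gene) in the 2 libraries of each group (dots) with the group mean (line). COL5A1 averages 29.6 CPM with both drugs and 19.3 CPM with TAK-981, while MRC1 averages 9.58 CPM with both drugs and 17.4 CPM with TAK-981.

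For all 5 genes the libraries of each TAK-981 group lay above the vehicle libraries with no overlap. Of all tested genes 73.5% did not overlap between both drugs and vehicle (43.5% higher, 29.9% lower) and 65.0% between TAK-981 and vehicle (36.0% higher). Places by fitted log2 fold change against vehicle were counted from the largest increase among 12843 tested genes. COL5A1 was in place 5 with both drugs and 7 with TAK-981. In the same order UNC13A was in 14 and 17, MYH15 in 43 and 44, MRC1 in 159 and 70, and BTN1A1 in 125 and 79. These values chose the genes. All 5 passed the filter on low counts, and each could pass it through the groups where it is high.

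Per kilobase of gene length the order of the genes was not the order of their fold changes. With both drugs BTN1A1 averaged 3.65 CPM per kilobase (RPKM), COL5A1 2.66, UNC13A 2.64, MRC1 1.85 and MYH15 1.55, and of neighbours in this order the COL5A1 and UNC13A libraries overlapped. With TAK-981 alone the levels were BTN1A1 3.74 RPKM, MRC1 3.37, COL5A1 1.73, UNC13A 1.67 and MYH15 1.20. COL5A1 and UNC13A again overlapped, while BTN1A1 and MRC1 did not. With venetoclax they were BTN1A1 0.329 RPKM, MRC1 0.0889, MYH15 0.0847, UNC13A 0.0153 and COL5A1 0.00342, and MRC1 overlapped MYH15, as UNC13A overlapped COL5A1. With vehicle they were BTN1A1 0.305 RPKM, MRC1 0.22, MYH15 0.0283, UNC13A 0.0115 and COL5A1 0.00575, so the 2 genes with the largest fold changes had the lowest starting levels. With TAK-981 between 59.2% (MYH15) and 68.3% (BTN1A1) of all genes in the table lay below them in RPKM.

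The same 5 genes were compared between venetoclax and vehicle, a difference that the choice of genes did not use, although choosing genes low in vehicle bears on its direction. Only MRC1 and BTN1A1 pass the low-count filter when it is applied to these 2 groups alone. COL5A1, UNC13A and MYH15 are in the fit through the groups with TAK-981, where they are high, so a count over all 5 says little. None of the 5 was called (adjusted p under 0.05, edgeR's quasi-likelihood test with Benjamini-Hochberg adjustment over all genes tested, as for every adjusted p here), against 20.8% of all genes (11.4% higher and 9.44% lower), 2 had an unadjusted p under 0.05, and DESeq2 also called 0. COL5A1 and UNC13A were at 2 and 5 summed counts with venetoclax, and 3 and 6 with vehicle, too few to show a difference at this depth. The ratio of CPM was 0.758 for COL5A1 (exact 95% counting interval 0.0633 to 6.62) and 0.948 for UNC13A (0.229 to 3.73), and the adjusted p was 0.878 and 0.994. BTN1A1 had a log2 fold change of 0.26 (SE 0.3, adjusted p = 0.568), which was 0.50 without venetoclax replicate 1 and -0.21 without replicate 2. COL5A1 was at 0.25 without venetoclax replicate 1 and UNC13A at 1.52 without replicate 2 (adjusted p = 0.901 and 0.249). MYH15 had 1.49 (SE 0.65, adjusted p = 0.133) and MRC1 -1.09 (SE 0.378, adjusted p = 0.0694), and these were the 2 genes whose venetoclax and vehicle libraries did not overlap, against 57.3% of all genes (22.7% higher, 34.5% lower). Both depended on the venetoclax library used. Without venetoclax replicate 2 MYH15 was 2.28 (adjusted p = 0.00745) and MRC1 -1.88 (adjusted p = 0.0228), and without venetoclax replicate 1 they were 0.69 (adjusted p = 0.472) and -0.78 (adjusted p = 0.161).

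Of the 5 genes, MRC1 was called when TAK-981 plus venetoclax was compared with TAK-981 alone, a difference that did not choose the genes. MRC1 fell, with a log2 fold change of -0.91 for both drugs against TAK-981 alone (SE 0.212, adjusted p = 0.0305), and was the 1 gene of 5 called, against 8.8% of all genes (2.76% higher and 6.03% lower). COL5A1 was at 0.58 (SE 0.179, adjusted p = 0.0823), UNC13A at 0.62 (SE 0.292, adjusted p = 0.23), MYH15 at 0.32 (SE 0.28, adjusted p = 0.529) and BTN1A1 at -0.08 (SE 0.188, adjusted p = 0.836). The libraries of the 2 groups did not overlap for COL5A1, UNC13A and MYH15, higher with both drugs, and for MRC1, lower, which makes 4 of 5 against 66.2% of all genes (38.5% higher, 27.7% lower). In counts, MRC1 had 172 and 143 with both drugs, and 423 and 298 with TAK-981.

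The MRC1 call depended on the libraries in the fit. Its adjusted p was 0.232 and 0.119 on leaving out the first or the second combination library, 0.234 and 0.152 on leaving out the first or the second TAK-981 library, and 0.0713 and 0.0711 on leaving out the first or the second vehicle library, with log2 fold changes of -1.12 to -0.72. It was 0.000567 and 0.000475 on leaving out the first or the second venetoclax library, and 0.000692 when the 4 libraries of the 2 groups were fitted alone. COL5A1 and UNC13A were called higher with both drugs when the 4 libraries of the 2 groups were fitted alone (adjusted p = 0.00308 and 0.0116). The fit without the filter on low counts also called them (0.0289 and 0.0147). They were not called in the main fit, with a replicate block (0.077 and 0.151) or by DESeq2's own test (adjusted p = 0.0607 and 0.71). Over all settings, leaving out each library among them, the log2 fold change ran from 0.42 to 0.74 for COL5A1 and from 0.38 to 0.82 for UNC13A.

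**Figure D3:**
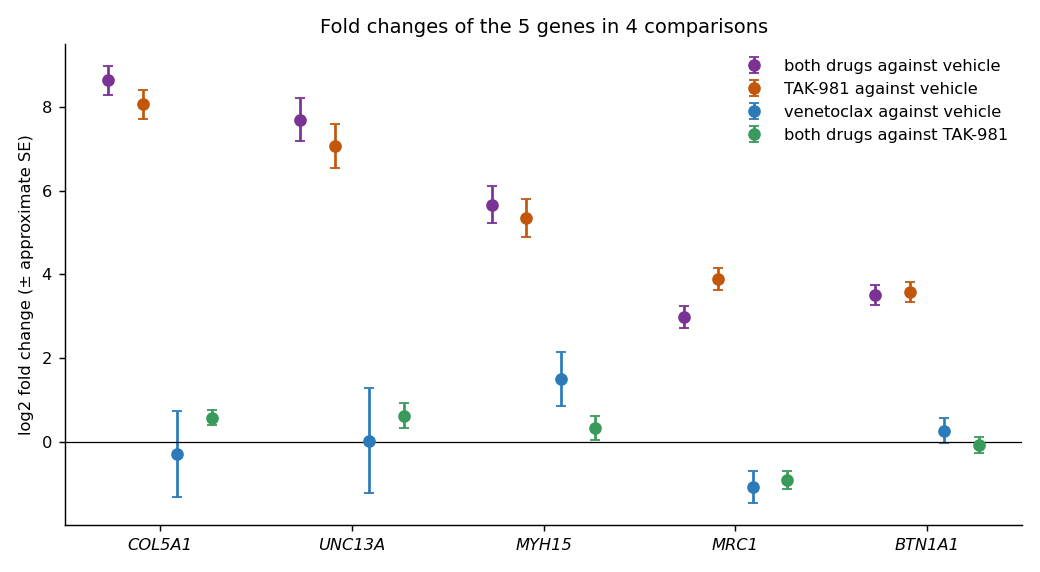
Log2 fold change (y axis, with the approximate SE as bars) of the 5 genes (x axis) for both drugs against vehicle, TAK-981 against vehicle, venetoclax against vehicle and both drugs against TAK-981. The bars of COL5A1, UNC13A and MYH15 are too short for either TAK-981 group against vehicle. The values against vehicle lie between 2.98 and 8.64 wherever TAK-981 was given, and those for both drugs against TAK-981 between -0.91 and 0.62.

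The interaction, meaning the log2 fold change of both drugs against venetoclax minus that of TAK-981 against vehicle, was called for 0 of the 5 genes, against 0.0311% of all genes (4 of 12843). The interaction holds the values with both drugs, with TAK-981 and with vehicle that chose the genes. With so few calls among all genes, a count over 5 says little. None of the 5 had an unadjusted p under 0.05, and DESeq2 called 0. The values were COL5A1 0.87 (SE 1.1), UNC13A 0.60 (SE 1.28), MYH15 -1.17 (SE 0.708), MRC1 0.18 (SE 0.424) and BTN1A1 -0.34 (SE 0.354). Few counts without TAK-981 stand behind the widest of these SEs. MYH15 was called without venetoclax replicate 2 (-1.97, adjusted p = 0.0243) and stood at -0.38 (adjusted p = 0.793) without replicate 1. MRC1 was at -0.15 and 0.95 without venetoclax replicate 1 and 2, and BTN1A1 at -0.58 and 0.12, so both changed sign. COL5A1 was at 0.32 without venetoclax replicate 1 and UNC13A at -0.90 without replicate 2, the second against 0.60 with all libraries. In venetoclax-treated cells the ratio of CPM for both drugs against venetoclax alone was 607 for COL5A1 (exact 95% counting interval 168 to 5021), from 1003 against 2 counts, and 250 for UNC13A (107 to 771). It was 21.0 for MYH15 (13.8 to 33.5), 18.2 for MRC1 (11.7 to 29.8) and 10.2 for BTN1A1 (7.42 to 14.4). The values with both drugs helped choose the genes, so these ratios are a description without a test.

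The 5 genes were set beside other genes that passed from very low to measurable levels. Of 13030 genes with a mean under 0.5 CPM with vehicle, 9253 of them with no vehicle count, 103 (0.79%) averaged at least 1 CPM with TAK-981. COL5A1, UNC13A and MYH15 were among them, in places 1, 2 and 6 by level with TAK-981. The levels behind this list and these places are those that chose the 5 genes, so high places follow from the choice. MRC1 and BTN1A1 were not, since they averaged 1.14 and 0.882 CPM with vehicle. Of the 103 genes, 84 also averaged at least 1 CPM with both drugs and 1 did so with venetoclax. Counted over all 13030 genes instead, 182 averaged at least 1 CPM with both drugs and 12 with venetoclax.

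**Figure D4:**
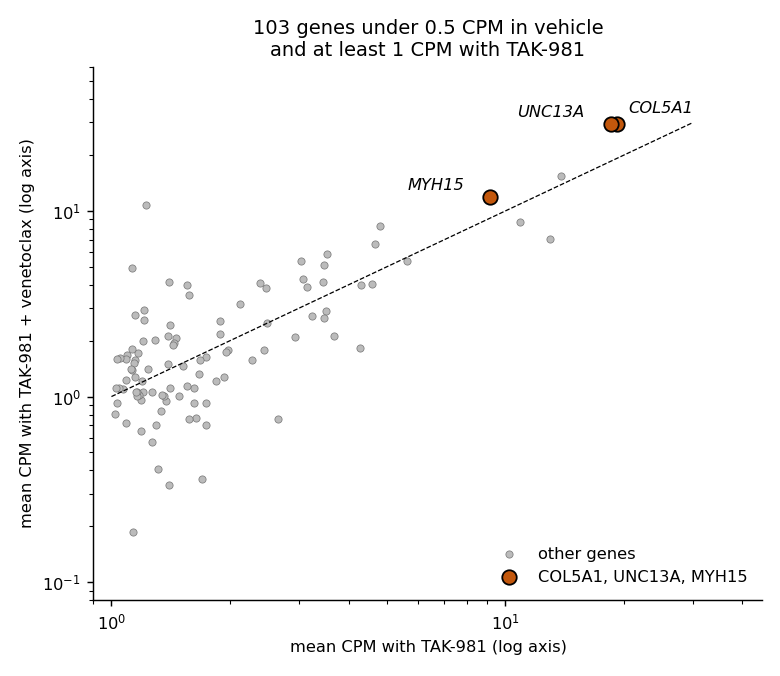
Mean level with TAK-981 plus venetoclax (y axis, CPM, log axis) against mean level with TAK-981 alone (x axis, CPM, log axis) for the 103 genes under 0.5 CPM with vehicle and at least 1 CPM with TAK-981; the dashed line marks equal levels. COL5A1, UNC13A and MYH15 lie above the line.

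Relatives of the 5 genes in their protein families had log2 fold changes between -0.62 and 1.08 with TAK-981 against vehicle, where tested. Across all tested genes TAK-981 against vehicle called 5.98% higher and 6.18% lower, with a median log2 fold change of 0.00149. The lists below are read against these shares without a test, and give genes other than the 5.

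The fibrillar collagens form the cross-striated fibers of connective tissue. Of 10 such genes 5 were tested, 0 were called with TAK-981 against vehicle (0 at an unadjusted p under 0.05, and 0 by DESeq2), and their median log2 fold change was -0.21. By CPM, COL24A1 was the most abundant of them, at 9.96 CPM with TAK-981 and 11.3 CPM with vehicle. COL5A2, the chain that assembles with COL5A1 in type V collagen, was at 3.26 CPM with TAK-981 and 2.96 CPM with vehicle, with a log2 fold change of 0.10 (adjusted p = 0.824). Of 29 genes for enzymes and chaperones that modify collagen, 18 were tested and 2 were called higher with TAK-981, 0 lower. They were SERPINH1, a collagen chaperone, at 0.78 (adjusted p = 0.0449), and LOX, which crosslinks collagen, at 0.86 (adjusted p = 0.0272). Both calls were lost in fits without a TAK-981 or a vehicle library, SERPINH1 also without a combination library, with adjusted p up to 0.286 and 0.187.

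The 3 tested relatives of UNC13A were well expressed with vehicle, while BAIAP3, with 2 and 1 vehicle counts, was too low to test. UNC13D, which primes cytotoxic granules in blood cells, averaged 146 CPM with TAK-981 and 88.1 CPM with vehicle, and UNC13B 56.6 CPM with TAK-981 and 37.8 CPM with vehicle. Of 4 family members 3 were tested and 2 were called higher, 0 lower, UNC13B at 0.55 (adjusted p = 0.0109) and UNC13D at 0.70 (adjusted p = 0.0478). The UNC13B call was lost without any 1 TAK-981 or vehicle library and the UNC13D call without any 1 TAK-981, vehicle or combination library, with adjusted p up to 0.114 and 0.303. Of 36 genes of synaptic vesicle release 16 were tested, 2 were called higher and 0 lower, and the median log2 fold change was 0.30. They were STXBP5, which binds syntaxin, at 0.64 (adjusted p = 0.00408), and PCLO, a scaffold of the presynaptic active zone, at 1.40 (adjusted p = 0.012). STXBP5 was lost without either TAK-981 library or without vehicle replicate 2 (adjusted p up to 0.0654), and PCLO without any 1 TAK-981 or vehicle library (up to 0.123).

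Of 13 other myosin II heavy chain genes, 4 were tested, 0 were called higher with TAK-981 and 1 lower, and 5 had no count in any library. The gene called lower was MYH10, a nonmuscle heavy chain, at -0.62 (adjusted p = 0.0209), lost without any 1 TAK-981 or vehicle library (adjusted p up to 0.185). MYH9, the main nonmuscle chain, was at 434 CPM with TAK-981 and 478 CPM with vehicle. Of 13 myosin light chain genes 6 were tested, and 1 was called lower with TAK-981, MYL4 at -1.21 (adjusted p = 0.0178), again lost without any 1 TAK-981 or vehicle library (up to 0.173).

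In the mannose receptor family 2 of 4 genes were tested and 0 called with TAK-981 (0 at an unadjusted p under 0.05, and 0 by DESeq2). By CPM, MRC2 was the most abundant, at 0.788 CPM with TAK-981 and 1.12 CPM with vehicle. Of 24 other macrophage receptors and markers 7 were tested, 1 was called higher and 0 lower, and the median log2 fold change was 0.24. That gene was CLEC7A, the beta-glucan receptor dectin-1, with 60 and 70 counts with TAK-981 against 8 and 4 with vehicle, a log2 fold change of 3.57 (adjusted p = 0.00368, and 0.0575 without vehicle replicate 2). The macrophage genes SIGLEC1, MARCO, VSIG4, CD209, C1QA and C1QB had no count in any library. The summed level of the 24 genes was 571 and 494 CPM with both drugs, 529 and 522 CPM with TAK-981, 170 and 211 CPM with venetoclax, and 522 and 367 CPM with vehicle, most of it from STAB1.

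The butyrophilins, immunoglobulin-like membrane proteins of which BTN2A1 and the BTN3A proteins act in recognition by gamma delta T cells, had 3 members called. Of 13 others, 6 were tested, 3 were called higher with TAK-981 and 0 lower, and the median log2 fold change was 0.39. BTN3A3 averaged 89.9 CPM with TAK-981 and 48.9 CPM with vehicle, with a log2 fold change of 0.85 (adjusted p = 0.00207), and its call held in each of the 8 fits without 1 library (adjusted p up to 0.0408). BTN2A1 was at 0.53 (adjusted p = 0.0175) and BTN3A1 at 0.43 (adjusted p = 0.029). BTN2A1 was lost without any 1 TAK-981 or vehicle library (up to 0.156), and BTN3A1 also without a combination library (up to 0.209). Of 10 mammary secretory genes 3 were tested and 1 was called higher, XDH, the oxidase that lies beside butyrophilin on milk fat, from 12 and 8 counts with TAK-981 against 0 and 1 with vehicle. The XDH call was lost without any 1 TAK-981 or vehicle library (adjusted p up to 0.128), and DESeq2 with all libraries did not make it (adjusted p = 0.0631). The milk protein genes CSN3 and LALBA had no count in any library.

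**Figure D5:**
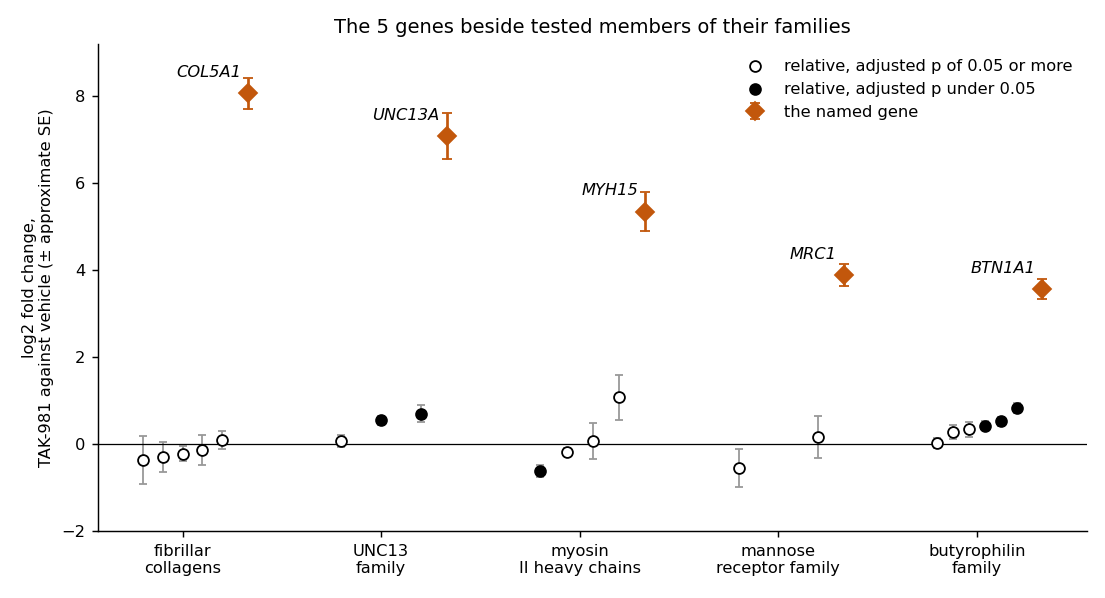
Log2 fold change of TAK-981 against vehicle (y axis, bars are the approximate SE) for each of the 5 genes (diamonds) and the tested relatives in its family (circles, filled where the adjusted p was under 0.05). The bars of COL5A1, UNC13A and MYH15 are too short. The 5 genes lie between 3.57 and 8.06, and the tested relatives between -0.62 and 1.08.

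Markers of the cell types best known for these genes were mostly too low to test. Among 10 stromal fibroblast markers 3 were tested and 1 was called higher with TAK-981, the growth factor receptor PDGFRA, at 12.1 CPM with both drugs, 2.57 CPM with TAK-981, 1.12 CPM with venetoclax and 0.599 CPM with vehicle. Its log2 fold change with TAK-981 was 2.05 (adjusted p = 0.0107, and up to 0.105 without any 1 TAK-981 or vehicle library), while DCN, THY1 and POSTN had no count. The summed level of the stromal list was 48.8 and 57.9 CPM with both drugs, 37.6 and 33.6 CPM with TAK-981, 43.8 and 31.7 CPM with venetoclax, and 32.0 and 30.8 CPM with vehicle. Among 10 neuronal markers 3 were tested and 1 was called lower, MAP2 at -0.77 (adjusted p = 0.0486, and up to 0.293 without any 1 TAK-981, vehicle or combination library). The other tested neuronal markers, DCX and SYP, were at 0.28 and 0.54 (adjusted p = 0.713 and 0.614), while NEFL, NEFM and ELAVL4 had no count. The neuronal sum was 7.70 and 10.8 CPM with both drugs, 5.48 and 6.06 CPM with TAK-981, 8.59 and 10.3 CPM with venetoclax, and 7.29 and 8.19 CPM with vehicle. Among 11 striated muscle markers 1 was tested and called higher, TNNT1, a slow skeletal troponin, with 64 and 38 counts with TAK-981 against 5 and 2 with vehicle (log2 fold change 3.94, adjusted p = 0.000916). ACTC1, CKM, MYOG and MYOD1 had no count, and the muscle sum was 2.33 and 2.73 CPM with both drugs, 3.26 and 3.14 CPM with TAK-981, 0.205 and 0.342 CPM with venetoclax, and 0.615 and 0.42 CPM with vehicle.

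Germline genes, many of which are silenced in body cells, gave 8 tested of 24 and 1 called higher, TDRD9, a helicase of the piRNA pathway, at 14.7 CPM with TAK-981 and 4.58 CPM with vehicle (log2 fold change 1.65, adjusted p = 0.00186). CD34, which marks blood progenitors, was at 1296 CPM with both drugs, 1284 CPM with TAK-981, 1264 CPM with venetoclax and 965 CPM with vehicle. Of 10 blood cell markers 7 were tested, 3 were called higher with TAK-981 and 1 lower. CD33, a myeloid surface protein, had 39 and 41 counts with TAK-981 against 10 and 9 with vehicle (log2 fold change 2.22, adjusted p = 0.00463), and MPO, the myeloid granule peroxidase, 11 and 12 counts with TAK-981 against 0 and 0 with vehicle. SPN was at 0.47 (adjusted p = 0.0255) and CD3E, of the T cell receptor complex, at -0.82 (adjusted p = 0.0178). These 4 calls were lost in at least 1 fit without a TAK-981 or a vehicle library, with adjusted p up to 0.0596 for CD33, 0.0985 for MPO, 0.202 for SPN and 0.152 for CD3E. The part of these markers in the values of the 5 genes was not tested.

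With both drugs against vehicle, where 12.8% of all genes were called higher and 15.1% lower, more genes of these lists were called, in both directions. Of the fibrillar collagens 2 were called higher and 0 lower, COL3A1 at 1.65 (adjusted p = 0.0232) and COL24A1 at 0.57 (adjusted p = 0.0383). Of the collagen modifying genes 5 were called higher, led by SERPINH1 at 1.62 (adjusted p = 0.000867) in order of p, and 3 lower, PLOD1 at -0.59, PLOD2 at -1.52 and P4HA1, a collagen prolyl hydroxylase subunit, at -2.99 (adjusted p = 0.0127, 0.000498 and 0.00049). Calls higher and lower were 1 and 0 for the UNC13 family, 4 and 0 for synaptic vesicle release, 1 and 0 for myosin heavy chains and 2 and 1 for myosin light chains. They were 0 and 1 for the mannose receptor family (MRC2 at -1.63, adjusted p = 0.0433), 1 and 1 for macrophage genes (CLEC7A at 3.28 and the scavenger receptor MSR1 at -1.06), 3 and 0 for butyrophilins and 1 and 0 for mammary genes. For germline genes they were 1 and 2, with TDRD9 at 1.38 (adjusted p = 0.00206), and the germ cell RNA-binding protein DAZL at -1.17 (adjusted p = 0.00085) and TDRKH at -0.64 (adjusted p = 0.031). For neuronal markers they were 2 and 0, DCX and SYP at 1.67 each (adjusted p = 0.00781 and 0.0416). For stromal markers they were 2 and 0, PDGFRA at 4.24 and FBN1 at 1.07 (adjusted p = 0.000112 and 0.00433), for muscle markers 1 and 0, and for blood cell markers 2 and 2. With venetoclax against vehicle, PLOD1 was at -1.03, PLOD2 at -0.72, P4HA1 at -1.60, MSR1 at -0.69 and DAZL at -0.86, all called lower. MRC2 at -1.45 and TDRKH at 0.17 were not called there. None of these genes was called with TAK-981 alone. The list calls with both drugs and with venetoclax were not checked in the fits without 1 library.

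The genes next to the 5 were looked at within 100 kb. Of 28 neighbours 15 were tested, 5 were called higher with TAK-981 and 2 lower, against 5.98% and 6.18% of all tested genes. Of these calls, 3 higher and 1 lower lie at BTN1A1 alone, so they are not separate places. The 8 neighbours of COL5A1 had no count in any library. They were the ficolin genes FCN1 and FCN2 and otherwise only microRNA genes of the MIR3689 group. Near UNC13A, 1 of 5 tested neighbours was called, FCHO1, 59353 bases away, at 0.87 (adjusted p = 0.0111, and up to 0.119 without either TAK-981 library or vehicle replicate 2). Near MRC1, TMEM236, 8476 bases away on the same strand, had 57 and 52 counts with TAK-981 against 13 and 16 with vehicle, a log2 fold change of 2.05 (adjusted p = 0.00595, and up to 0.0696 without either vehicle library or TAK-981 replicate 2). Near MYH15, KIAA1524 was called lower at -0.53 (adjusted p = 0.0307, and up to 0.238 without any 1 TAK-981, vehicle or combination library). BTN1A1 lies among its relatives, and all 6 of its neighbours were tested. BTN2A1, BTN3A1 and BTN3A3 were called higher, as given above, and HMGN4, 27983 bases away, lower at -0.76 (adjusted p = 0.0047, and up to 0.0678 without TAK-981 replicate 2 or vehicle replicate 2).

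The labels do not state whether the authors' counting used strand. In GENCODE 29, antisense transcripts overlap COL5A1 (COL5A1-AS1), MRC1 (AC069023.1) and UNC13A (AC008761.2), and reads from a gene and its antisense partner could not be told apart if counting ignored strand.

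The genes most like each of the 5 over the 8 libraries were taken by Pearson correlation of log2 CPM, a description over libraries that fall into groups with and without TAK-981. The 5 genes correlated with one another at 0.862 (MRC1 and MYH15) to 0.993 (BTN1A1 and COL5A1). All 5 were chosen as low with vehicle and high with TAK-981, so high values here follow from the choice. Nearest to COL5A1 were MROH2A, LMTK3 and F2R (0.996 each). MROH2A and LMTK3 had 0 counts in all 4 libraries without TAK-981, and LMTK3 had 126 and 55 counts with both drugs and 81 and 62 with TAK-981. F2R, the thrombin receptor PAR1, was well above silence, with 2078 and 1290 counts with both drugs, 1980 and 1485 with TAK-981, 345 and 779 with venetoclax, and 587 and 610 with vehicle.

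Nearest to UNC13A were PROS1 (0.994), GIPC3 (0.993) and RYR2 (0.992). RYR2, the cardiac calcium release channel, had 1826 and 1125 counts with both drugs, 2092 and 1520 with TAK-981, 212 and 260 with venetoclax, and 240 and 239 with vehicle. Nearest to MYH15 were RAPGEF2 (0.993), TRIM24 (0.992) and WAS (0.990), all expressed with vehicle. Nearest to MRC1 were MAS1 (0.997), SKIL (0.993) and ZNF844 (0.992). MAS1, a receptor for an angiotensin fragment, shared the lower level with both drugs, at 66 and 45 counts against 125 and 87 with TAK-981 alone, with 3 and 9 counts with venetoclax and 18 and 15 with vehicle. Nearest to BTN1A1 were TBC1D22B (0.998), LRBA (0.996) and ETV7 (0.994). ETV7, an ETS-family repressor, had 13 and 9 counts with both drugs, 16 and 13 with TAK-981 and 0 in each of the other 4 libraries. Genes this alike ranged from silent to highly expressed with vehicle, since the measure compares shape and not level.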

How the data were processed

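The data are raw read counts per gene, deposited by the authors as a table of whole-number counts for 25168 genes in 8 libraries. Per the submitters' processing notes, Trimmomatic, STAR 2.6.0, HTSeq 0.11.1 and edgeR were used with the hg38 build. The notes give no role or order for them. Per the labels' protocols, libraries were made from miRNeasy-isolated RNA with a SMART-Seq low-input kit and sequenced as single reads. For the annotation, strand handling and multi-mapped reads, settings were not given in the sources used here. Other labels name a different library method, so how well RNA without poly(A) tails was captured is uncertain.

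From these counts, CPM was computed by scaling each library's counts to a common total, and RPKM as CPM per kilobase of the length in the table. Differences were fitted with edgeR 4.0.16 in R 4.3.3 (TMM scaling, filterByExpr, robust quasi-likelihood F test, all 4 groups in one fit) over 12843 genes, with Benjamini-Hochberg adjustment over all of them and a call at an adjusted p under 0.05. The SE is the size of the log2 fold change divided by the square root of F, and is approximate. For COL5A1, UNC13A and MYH15 in either TAK-981 group against vehicle, a 95% range from it is narrower than the exact counting interval. The SE is too small there. Ratios of summed counts have exact 95% intervals that cover counting error only, as PCR reads without molecular identifiers are not independent molecules. The fits were tested on simulated data with 100 genes changed at each size, all above a minimum level. For TAK-981 against vehicle 36% of 1.5-fold and 92% of 2-fold changes were recovered, with 6 false calls. For the interaction these were 10% and 60%, with 8 false calls. DESeq2 1.42.0 was an alternative, as were its size factors, no filter, a replicate block, the 2 compared groups alone and leaving out each library.

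The 5 genes, the gene lists and the tests were chosen with earlier results of these data known. Named beside the 5 were, per list, up to 4 genes called with TAK-981 with the smallest p, or the most abundant where none was called, the 3 most correlated genes with a standard symbol (log2 CPM with a prior count of 2), and the neighbours within 100 kb. Of the table's rows, 54 span over 3 Mb, as where copies of one small RNA share a symbol, and were not used as neighbours. Other genes named for their role, such as COL5A2, CD34, MYH9 and STAB1, the marker genes at 0 and the genes called with both drugs were named after their values were seen. Promoters are RefSeq windows, matched by symbol for 4 of the 5 genes, and MRC1 has no window here.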

Additional observations from a re-analysis of the deposited data

How the results depend on the processing

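With 2 libraries per group, counts of calls depended on the fit. Leaving out 1 library in turn, with a lone library assumed to vary like the other groups, gave 336 to 3879 calls for TAK-981 against vehicle (1562 with all), 1431 to 6152 for both drugs against vehicle (3582), 253 to 5360 for venetoclax against vehicle (2676), 65 to 3696 for both drugs against TAK-981 (1130) and 0 to 4440 for the interaction (4). Fitting the compared groups alone gave 4096 calls for TAK-981 against vehicle, 5740 for both drugs against vehicle, 200 for venetoclax against vehicle and 3746 for both drugs against TAK-981. Without the filter on low counts there were 1875 for both drugs against TAK-981 and 1098 for the interaction. The interaction also gave 8 calls with DESeq2's size factors and 300 with DESeq2. The cause was not tested.

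Of the 5 genes, 0 to 2 were called for venetoclax against vehicle when 1 library was left out (0 with all), 0 to 3 for both drugs against TAK-981 (1) and 0 to 1 for the interaction (0). Without the filter 2 were called for venetoclax against vehicle, MYH15 (adjusted p = 0.0298) and MRC1 (adjusted p = 0.0201), and 3 for both drugs against TAK-981, where the 2 groups alone also gave 3. The MRC1 difference between both drugs and TAK-981 was below 0 in every setting tried. Of 40 other named genes called with TAK-981, 14 were called in every fit without 1 library and 26 were not.

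Same-numbered libraries of 2 groups deviated from their group means with correlations of -0.00949 to 0.207, so the numbers were not taken as pairs. With the replicate block the interaction gave 24 calls, and the other comparisons 1739 (TAK-981 against vehicle), 3798 (both drugs against vehicle), 2994 (venetoclax against vehicle) and 1253 (both drugs against TAK-981). Depth limits COL5A1 and UNC13A most, at 0 to 5 counts in each library without TAK-981.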
